A study of Homo sapiens with 8 samples.

Results

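The pigment synthesis and melanosome genes are the enzymes, structural proteins, transporters and receptors that make and house melanin. They were taken by symbol from a list of 10 genes, of which 8 had a row among the 4616 genes of the authors' deposited table: PMEL, MLANA, TYR, DCT, SLC24A5, SLC45A2, GPNMB and GPR143. The other 2, the enzyme gene TYRP1 and the transporter gene OCA2, had no row and were not analysed here. The 8 mRNAs were compared between WM902B cells, a human primary melanoma line whose BRAF gene carries an activating mutation, that expressed a hairpin against the long non-coding RNA TINCR (shTINCR) and the same cells with a scrambled hairpin (shSCR). All cells were at passage 18 and received cycloheximide at 100 µg/ml for 5 min, in 2 biological replicates per hairpin, from which 4 footprint and 4 RNA libraries were made. A single hairpin sequence per condition is all that the labels name, and the sources do not say whether the cells were a clone or a pool. For TINCR there were 0 rows, and the loss of its RNA could not be checked.

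Melanin is made in melanosomes, organelles related to lysosomes that melanocytes and many melanomas build in stages. PMEL first forms fibrils inside the young organelle, tyrosinase and its relatives then turn tyrosine into pigment on those fibrils, and transporters set the pH and ion content that the enzymes need. Transcription of many of these genes is driven by MITF, the lineage factor that binds E-box motifs in their promoters, while how well each mRNA is then translated is a separate step. That step is what translational efficiency (TE) measures: ribosome footprints over mRNA for the same gene, given in the table as 1 log2 value per condition. It is an average over all cells of a culture, in which fewer cells translating an mRNA and fewer ribosomes per mRNA cannot be told apart.

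Most of the promoters searched for the listed genes hold a short motif that the choice of genes did not use. It is shown because this E-box core is known from promoters that MITF binds. Promoter entries of 300 bases, 250 before and 50 after the annotated start, were found in RefSeq (GRCh38.p14) for 8 of the 10 listed genes, 9 entries in all with 2 for DCT. They cover 6 of the genes with TE values as well as TYRP1 and OCA2, and PMEL and SLC45A2 were not searched. The E-box core CATGTG was searched on both strands and occurred in 7 of the 9 entries, from 7 of the 8 genes, against 11.1% of all 35116 promoter entries and 6.99% of the 5409 entries of genes in the table. For each of the 7 genes 1 occurrence follows, read 5′ to 3′ with the core in capitals.
TYR: gaaaagtcagtCATGTGcttttcagagg
TYRP1: tggaagggaatCATGTGctgatcaagtc
DCT: gcactttgggtCATGTGctaatgatgag
GPNMB: ctcttacaactCATGTGcttatgactca
GPR143: cctgcctgggtCATGTGctgggcgggct
SLC24A5: ttaaactggatCATGTGaggagtctcct
OCA2: gtgggcggggcCATGTGggcagctttgt

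In GRCh38.p14 these stretches lie at chr11:89177760-89177787 on the plus strand (TYR), chr9:12693230-12693257 on the plus strand (TYRP1) and chr13:94479800-94479827 on the minus strand (DCT). Those of GPNMB and GPR143 lie at chr7:23246641-23246668 on the minus strand and chrX:9765864-9765891 on the plus strand, and those of SLC24A5 and OCA2 at chr15:48120964-48120991 and chr15:28099452-28099479, both on the minus strand. The first 5 of the 7 sequences hold the longer form TCATGTGCT, which contains the core and was searched, on both strands, after these sequences had been seen. These 5 genes each had another occurrence of the core that is not printed, and among those only that of DCT holds the longer form. That form occurred in 0.216% of all promoter entries. MLANA had neither form in its 300 bases, and the other E-box core, CACGTG, occurred in 0 of the 9 entries against 7.26% of all entries. A match is a string of letters in a window and not a measured binding site.

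The start of the mRNA was examined as well, because an mRNA that opens with a C followed by a run of pyrimidines belongs to the class whose translation follows growth signalling. The annotated first 15 bases were cttcatacacgcggc for MLANA, actgtagtagtagct for TYR and agaagaacactgttg for GPNMB. A C followed by at least 4 pyrimidines stood at the start of 0 of the 9 entries of this group, against 4.07% of all entries and 54.7% of the 75 entries of ribosomal protein genes in the table. These are annotated starts, and the starts used in WM902B cells were not measured.

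Several of the pigment mRNAs carried many footprints for their abundance in both conditions. Median log2 TE of the 8 genes was 0.61 in shTINCR cells and 0.70 in shSCR cells of the authors' deposited table, against 0.0019 and 0.0078 for all genes. The group's median stood at the 77.1st percentile of all genes in shTINCR cells and at the 81.6th in shSCR cells. Of the 8 genes, 5 were in the top 25% of the table in shTINCR cells and 4 in shSCR cells. From the highest to the lowest member TE spanned 3.56-fold in shTINCR cells and 3.40-fold in shSCR cells. The SD over the 8 genes was 0.627 and 0.647 on the log2 scale, against 0.921 and 0.899 over all genes. These levels are a description. The table has no value per replicate, the region over which reads were counted is not given, and the spread of neighbouring levels is therefore unknown.

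**Figure D1:**
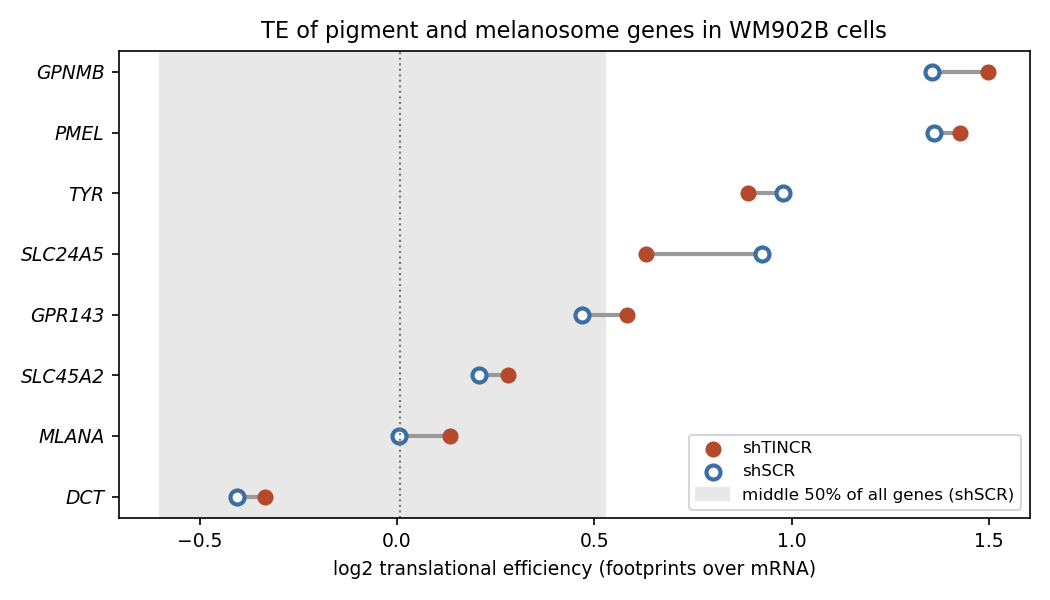
Log2 TE (x axis) of the 8 genes (y axis) in shTINCR cells (filled points) and shSCR cells (open points), 1 value per condition and gene, without error bars because the table has none. The grey band holds the middle 50% of all genes in shSCR cells and the dotted line their median; GPNMB and PMEL lie far to the right of the band in both conditions and DCT lies left of the median.

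The fibril protein and its relative headed the order. PMEL, which forms the amyloid fibrils of the young melanosome, had a log2 TE of 1.43 in shTINCR cells and 1.36 in shSCR cells in the authors' deposited table. Only 222 and 201 of the 4616 genes stood above it. GPNMB, a membrane glycoprotein related in sequence to PMEL and found in melanosomes and lysosomes, had 1.50 in shTINCR cells and 1.36 in shSCR cells in the authors' deposited table, with 197 and 204 genes above it. These 2 were the members in the top 10% of the table in both conditions. MLANA, a small membrane protein that associates with PMEL and is needed for its maturation, had 0.14 in shTINCR cells and 0.0049 in shSCR cells in the authors' deposited table. It thus sat at the 56.0th and 49.9th percentiles, in the middle of all genes.

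The 2 measured enzymes stood far apart. TYR, the copper enzyme tyrosinase that catalyses the rate-limiting step of melanin synthesis, had a log2 TE of 0.89 in shTINCR cells and 0.98 in shSCR cells in the authors' deposited table (86.2nd and 89.8th percentiles). DCT, dopachrome tautomerase, acts after tyrosinase and had -0.34 in shTINCR cells and -0.41 in shSCR cells in the authors' deposited table (34.9th and 32.2nd percentiles). DCT was the member with the lowest TE in both conditions and the only one below the median of all genes in shTINCR cells. A pseudogene that copies part of tyrosinase, TYRL, is annotated in RefSeq, and whether reads were shared with it was not tested.

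The transporters and the receptor lay between these. SLC24A5, a potassium-dependent sodium and calcium exchanger of the melanocyte, had a log2 TE of 0.63 in shTINCR cells and 0.92 in shSCR cells in the authors' deposited table (77.8th and 88.5th percentiles). SLC45A2, a transporter that helps keep melanosomes from turning acidic, had 0.28 and 0.21 in shTINCR and shSCR cells in the authors' deposited table (62.8th and 59.2nd percentiles). GPR143, a receptor in the melanosome membrane whose loss causes ocular albinism, had 0.58 in shTINCR cells and 0.47 in shSCR cells in the authors' deposited table (75.9th and 72.1st percentiles). SLC24A5 overlaps the gene MYEF2 and MLANA overlaps BRD10 in RefSeq, both without a row in the table. Whether reads of these neighbours entered the values was not tested, since the counting rule is not given.

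The order of the 8 genes was nearly the same under both hairpins. It ran GPNMB, PMEL, TYR, SLC24A5, GPR143, SLC45A2, MLANA and DCT in shTINCR cells, and in shSCR cells PMEL stood ahead of GPNMB by 0.0056 on the log2 scale with the rest unchanged in order. Across the 8 genes log2 TE under shTINCR followed that under shSCR with a Pearson r of 0.974 and a Spearman rho of 0.976. This is a correlation across genes, and each point shares its gene's sequence and counted region between both axes. Over all genes the SD of the log2 change, 0.249, was also small beside the SD of the levels, 0.921 and 0.899. The kept order is therefore not shown to be particular to the pigment genes.

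When TINCR was targeted, TE of 0 of the 8 pigment genes changed at the authors' adjusted p below 0.05, where 16.4% of all genes were called. In the authors' final comparison 0 of the 8 had an unadjusted p below 0.05, against 29.5% of all genes. The count stayed at 0 in the authors' first and second versions, where 17.9% and 20.3% of all genes were called, and at adjusted p thresholds of 0.1 and 0.01, where 22% and 7.82% were. The adjusted p-values of the 8 genes ran between 0.187 and 0.703 in the authors' deposited table. Their changes had a median of 0.07 on the log2 scale (1.05-fold) and an SD of 0.148 over the 8 genes, against a median of 0.02 and an SD of 0.249 over all genes. The sign was positive for 6 and negative for 2 of the 8, and positive for 52.5% of all genes.

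How large an estimated change had to be for a call follows from the precision of each gene. A standard error was computed from each deposited log2 change and its p-value, with a normal statistic assumed behind each p, and a 95% interval was made from it. By this measure 6 of the 8 genes were more precise than the median gene of the table (median standard error 0.108 for the 8 genes and 0.129 for all). The threshold corresponded to an unadjusted p of 0.00817. An estimated rise of 1.18-fold would have reached it for the most precise member, GPNMB, and one of 1.33-fold for the least precise, SLC24A5. The 757 genes that were called had a median absolute log2 change of 0.42, a size that reflects their selection by the threshold. An estimate below the size needed for its gene would not have been called. These sizes apply to estimates, and a true change of the same size or somewhat larger could still have been missed. The intervals bound each change and do not show that TE was equal.

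**Figure D2:**
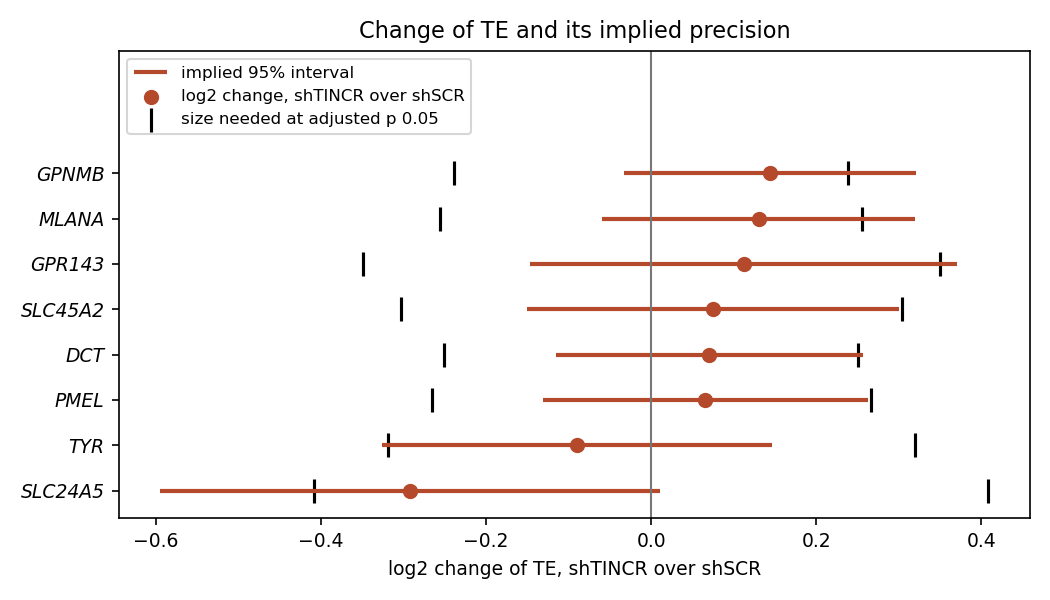
Log2 change of TE, shTINCR over shSCR (x axis), for the 8 genes (y axis) as points with the 95% interval implied by the deposited change and p-value; black ticks mark the size that the same precision would need for an adjusted p of 0.05. All 8 intervals include 0 and no point reaches its tick; SLC24A5 lies furthest to the left.

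GPNMB had the highest change of the 8, a log2 change of 0.14 in the authors' deposited table (adjusted p = 0.281), with an implied interval of 0.977-fold to 1.25-fold. MLANA followed at 0.13 in the authors' deposited table (1.09-fold, adjusted p = 0.382), with an interval of 0.960-fold to 1.25-fold. PMEL stood at 0.07 in the authors' deposited table (1.05-fold, adjusted p = 0.703), with an interval of 0.913-fold to 1.20-fold. For the fibril protein, its relative and its partner alike, the intervals end at or below 1.25-fold. None of the 3 passed.

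The enzymes differed in sign, and neither passed. TYR had a log2 change of -0.09 in the authors' deposited table (0.940-fold, adjusted p = 0.657), with an implied interval of 0.798-fold to 1.11-fold. DCT had 0.07 in the authors' deposited table (1.05-fold, adjusted p = 0.657), with an interval of 0.923-fold to 1.19-fold. The intervals overlap widely, and the difference between the 2 enzymes was not tested.

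SLC24A5 had the smallest p of the group. Its log2 change was -0.29 in the authors' deposited table (0.817-fold, adjusted p = 0.187), further from 0 than those of 76.7% of all genes, with an implied interval of 0.662-fold to 1.01-fold. It was also the least precise of the 8, with a standard error larger than those of 76.6% of all genes. In the authors' second version its unadjusted p was 0.0412, a value under 0.05 that 32.5% of all genes reached there, and its adjusted p was 0.134. An interval made in the same way from that version would leave out 0. SLC45A2 had a log2 change of 0.07 in the authors' deposited table (1.05-fold, adjusted p = 0.703) and GPR143 one of 0.11 in the authors' deposited table (1.08-fold, adjusted p = 0.604), with intervals of 0.901-fold to 1.23-fold and 0.903-fold to 1.29-fold. Without SLC24A5 the changes of the group lay between -0.09 and 0.14, with a median of 0.07.

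**Figure D3:**
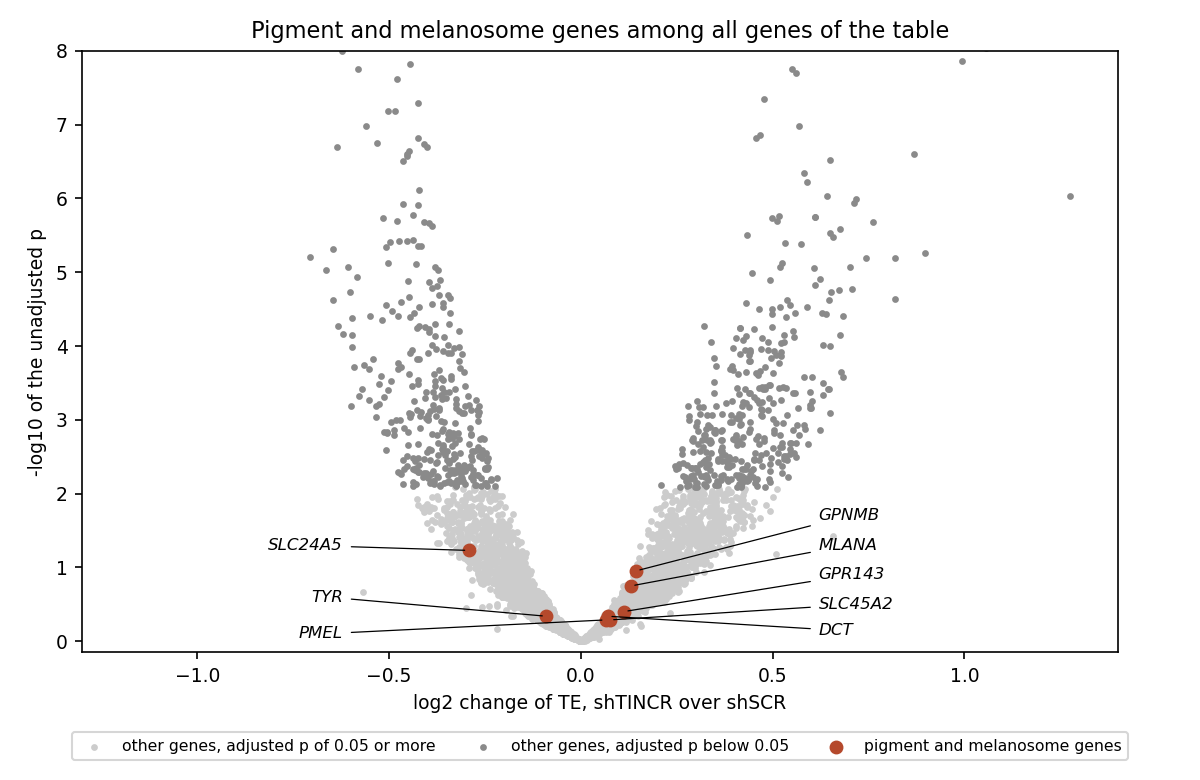
Log2 change of TE, shTINCR over shSCR (x axis), against -log10 of the unadjusted p (y axis) for all genes of the table, light grey where the adjusted p was 0.05 or more and dark grey below; the 8 pigment and melanosome genes are in red. All 8 lie in the light grey part, SLC24A5 to the left and GPNMB highest on the right; 44 other genes with smaller p lie above the axis range.

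By distance in the pair of log2 TE values, over 2 conditions, the genes nearest to the members were PSME1 for PMEL, RAVER1 for GPNMB, WDR34 for MLANA, PGK1 for TYR, STK17A for DCT, GLRX3 for SLC24A5, H2AFZ for SLC45A2 and GRHPR for GPR143. The distances were 0.0075 for PSME1 and 0.03 for RAVER1. Within a distance of 0.05 there were 25 other genes around MLANA, 25 around SLC45A2, 22 around GPR143 and 19 around DCT. There were 8 around TYR, 7 around SLC24A5, 4 around GPNMB and 2 around PMEL. Genes are sparser at high TE, so these counts restate the level of each member.

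The proteins that build, feed and regulate melanosomes were described next, in lists chosen with earlier results of these data known. In the 8 lists of such genes 94 distinct genes had a row, and 12 of them rose and 7 fell (20.2% called), beside 8.23% of all genes that rose and 8.17% that fell. The median log2 change of the 94 genes was 0.07, against 0.02 for all genes. The 4 lists of cell identity markers are given after them. Each list's count of called genes is to be read beside these shares over all genes, and no list was tested as a set.

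Proteins that shape PMEL included a protease whose TE rose. Of 9 measured genes of PMEL processing and fibril formation 2 rose and 0 fell, with a median log2 change of 0.15. The list also counts the secreted melanoma protein MIA, whose values are given at the end. BACE2, the protease that cleaves PMEL so that fibrils can form, had a log2 TE of -0.35 in shTINCR cells and -0.80 in shSCR cells and rose by 0.45 in the authors' deposited table (1.37-fold, adjusted p = 0.00153). CTSD, a lysosomal protease, rose by 0.30 in the authors' deposited table (adjusted p = 0.0201). The tetraspanin CD63, which helps sort PMEL, had 0.11 in the authors' deposited table and did not pass (adjusted p = 0.455).

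Of 17 measured genes of melanosome ion, copper and amino acid transport 4 rose and 1 fell, with a median of 0.11. MFSD12, which imports cysteine into melanosomes and lysosomes, had a log2 TE of 0.35 in shTINCR cells and -0.22 in shSCR cells and rose by 0.57 in the authors' deposited table (1.48-fold, adjusted p = 8.59e-06). The chloride and proton exchanger CLCN7 rose by 0.44 in the authors' deposited table (adjusted p = 0.0026), and the amino acid transporter chains SLC7A5 and SLC3A2 rose by 0.63 and 0.30. ATP6V1H, part of the vacuolar proton pump, had -0.37 and was lower (adjusted p = 0.00706 in the authors' deposited table). These transporters thus held both directions.

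The machinery that sorts and moves melanosomal cargo had 4 of 27 measured genes past the threshold (14.8%, beside 16.4% of all genes), all 4 of them falls in the final comparison. In the authors' second version 4 fell and 2 rose (22.2% called, beside 20.3% of all genes). Of 14 measured genes of the biogenesis complexes 0 rose and 2 fell, both subunits of the AP-3 adaptor, which sorts tyrosinase to melanosomes: AP3B1 at -0.37 and AP3M1 at -0.37 in the authors' deposited table, with adjusted p-values of 0.0121 and 0.0408. The list's median was -0.00041. Another AP-3 subunit, AP3D1, had a log2 change of 0.23 in the authors' deposited table and did not pass in the final comparison (adjusted p = 0.0829) but passed in the second version (adjusted p = 0.0377). AP1M1 of the AP-1 adaptor, at 0.34 in the authors' deposited table, did likewise, with adjusted p-values of 0.0777 and 0.0127. The p-values of the second version were adjusted here. Of 13 transport genes 0 rose and 2 fell, with a median of -0.06. In the authors' deposited table these were RAB11A of the recycling endosome, at -0.36 with an adjusted p of 0.0051, and RAB1A of the early secretory pathway, at -0.42 with an adjusted p of 0.00987. The kinesin heavy chain KIF5B had -0.23 in the authors' deposited table and missed the threshold (adjusted p = 0.0655). The melanosome tether proteins themselves did not pass: RAB27A had -0.17 (adjusted p = 0.538) and the motor MYO5A 0.01 (adjusted p = 0.944, from the authors' deposited table).

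Of 7 measured partners of melanin chemistry and tyrosinase folding 1 rose and 1 fell, with a median of 0.13. The glutathione transferase GSTP1 rose by 0.26 (adjusted p = 0.023), and calnexin (CANX), the chaperone that folds tyrosinase in the endoplasmic reticulum, fell by 0.248 (adjusted p = 0.025, from the authors' deposited table). The glycosyltransferase MGAT1 stood at 0.21 in the authors' deposited table (adjusted p = 0.328).

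Upstream of the pigment genes, 0 of 8 measured lineage transcription regulators changed at the authors' adjusted p below 0.05, beside 16.4% of all genes. At an unadjusted p below 0.05 the count was also 0, beside 29.5% of all genes, and the median log2 change was 0.08. MITF itself had a log2 TE of -0.52 in shTINCR cells and -0.48 in shSCR cells. Its log2 change was -0.04 in the authors' deposited table (adjusted p = 0.8). IRF4, which acts with MITF on the tyrosinase gene, stood at 0.24 (adjusted p = 0.237) and the neural factor POU3F2 at 0.25 (adjusted p = 0.296, from the authors' deposited table). SOX10, an activator of MITF, had 0.39 with an adjusted p of 0.196 in the final comparison of the authors' deposited table. Its p in the second version, adjusted here over all genes, was 4.98e-05. Among melanocyte receptors and cAMP signalling genes, 10 were measured, of which 1 rose and 0 fell, with a median of 0.11: GNAS, the stimulatory G protein subunit that couples the melanocortin receptor to cAMP, at 0.41 in the authors' deposited table (1.33-fold, adjusted p = 0.00437). ADCY6, an adenylyl cyclase, had 0.32 (adjusted p = 0.173) and the endothelin receptor EDNRB 0.21 (adjusted p = 0.234, from the authors' deposited table). GNAS is a locus with several overlapping transcripts, which the table does not separate.

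Of 16 measured genes reported as other targets of MITF 4 rose and 1 fell, with a median of 0.09. The cell cycle inhibitors CDKN2A and CDKN1A had log2 changes of 0.66 and 0.44, the T-box repressor TBX2 one of 0.61 and IVNS1ABP one of 0.82 in the authors' deposited table. HIF1A, the oxygen-sensing transcription factor, had -0.37 in the authors' deposited table and was lower (adjusted p = 0.000472). These genes share with the pigment genes MITF as a reported regulator of transcription, and its action on them was not measured.

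**Figure D4:**
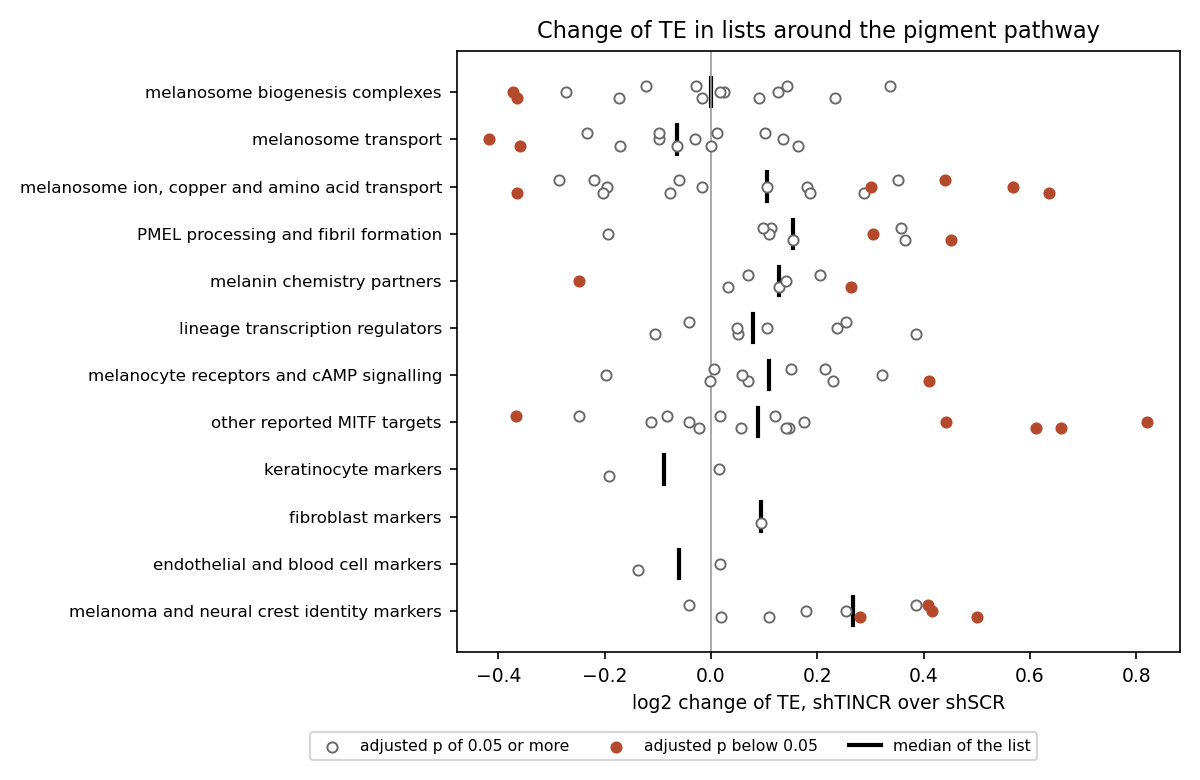
Log2 change of TE, shTINCR over shSCR (x axis), for the measured genes of 12 lists (y axis); filled points had an adjusted p below 0.05, open points did not, and the black bar is the list's median. Filled points stand on both sides of 0 in the transport list of ions and amino acids, to the left in the lists of biogenesis and movement (4 of 27 genes), and to the right among melanoma and neural crest markers.

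Markers of cell identity were examined last. Of the 12 melanoma and neural crest markers 10 had a row, and 4 rose and 0 fell, with a median log2 change of 0.27. Of all genes 8.23% rose and 8.17% fell, with a median of 0.02. The adhesion molecules L1CAM and MCAM rose by 0.50 (adjusted p = 0.00149) and 0.28 (adjusted p = 0.00891), the neurotrophin receptor NGFR by 0.42 and the proteoglycan CSPG4 by 0.41 (adjusted p = 0.00602, from the authors' deposited table). S100B had 0.02 in the authors' deposited table and did not pass (adjusted p = 0.911). Of 18 keratinocyte markers 2 had a row (DSP and PERP), of 10 fibroblast markers 1 (COL1A2) and of 10 endothelial and blood cell markers 2 (KDR and CD68), and 0 of these 5 changed at an adjusted p or an unadjusted p below 0.05. Of all genes 16.4% passed the adjusted and 29.5% the unadjusted threshold. The medians of these lists, in the same order, were -0.09, 0.09 and -0.06. The defining keratins KRT5 and KRT14 had no row. A row means only that a gene entered the authors' comparison, since the table holds no abundance.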

How the data were processed

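Footprint and RNA libraries of WM902B cells (4 groups of 2 replicates) entered 1 deposited table of 4616 genes. The authors gave log2 TE per condition, 2 versions of its log2 change and a final one, each with a p-value, with an adjusted p-value for the final one, per the file headers. Named without roles are DESeq 1.10.1, HTSeq 0.5.3p9, TopHat2 2.0.8, Bowtie2 2.1.0, CASAVA 1.9, SAMtools 0.1.18 and build hg19, per the submitters' processing notes. Which tool made the columns is not stated. In all 4616 rows the final p-value equalled the larger of both versions, and the adjusted p-value matched Benjamini-Hochberg over all rows within 2e-15. With 0 library columns, a planned count test was replaced by the authors' own p-values, and depth and replicate spread are unknown.

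Genes were called at an adjusted p below 0.05. The authors gave no adjusted p-values for their 2 versions, so these were adjusted here by Benjamini-Hochberg over all rows. Folds are 2 to the power of the log2 change. Implied standard errors divide the log2 change by the normal quantile of its p-value. The calculation was run on simulated p-values made from a normal statistic, which checks its arithmetic alone. Whether a normal statistic lies behind the deposited p-values was not tested. All members are named. From each list the 3 genes with the smallest p and up to 4 more past the threshold are named, and for each member its nearest gene. CD63, AP3D1, RAB27A, MYO5A, S100B, MITF, ATP6AP1 and ATP6V0D1 were named after their values were seen. The members and lists were chosen with earlier results of these data known. Promoter sequences and gene names came from RefSeq (GRCh38.p14). The work used matplotlib 3.10.9, scipy 1.17.1, numpy 2.4.6, pandas 2.3.3 and Python 3.11.15.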

Additional observations from a re-analysis of the deposited data

How the results depend on the processing

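The count of pigment genes past the threshold was 0 of 8 in both versions of the authors' estimate and at adjusted p thresholds of 0.1 and 0.01. Each of the 8 changes had the same sign in one version as in the other, which start from the same libraries, and after centring by the median of all genes, 0.02 on the log2 scale. Over the 12 lists, 23 of 106 distinct genes were called in the final comparison, beside 16.4% of all genes. The count ran between 18 at a threshold of 0.01, beside 7.82% of all genes, and 29 in the second version, beside 20.3%. Among the 45 genes compared, 3 that had missed the threshold (SOX10, MIA and AP1M1) passed in the second version, 2 (AP1M1 and KIF5B) passed at a threshold of 0.1, and 5 (AP3B1, AP3M1, CTSD, GSTP1 and CANX) did not pass at 0.01. Of the 14 biogenesis genes 0 passed at 0.01, against 2 in the final comparison and 4 in the second version, where AP3D1 and AP1M1 rose. Centring turned the sign of PERP, to -0.000351 on the log2 scale. No paired analysis was possible because the table holds no value per library. For the same reason leaving out a replicate, DESeq2 size factors and a filter on low counts were not run, and the precision that depth would give is unknown.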

Other observations

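Median levels of TE varied between the lists around the pigment pathway, and TE varied widely over all genes, where the SD of log2 TE was 0.921 in shTINCR cells and 0.899 in shSCR cells. The 9 measured genes of PMEL processing and fibril formation had a median log2 TE of 0.85 in shTINCR cells and 0.73 in shSCR cells, and the 13 melanosome transport genes one of -0.58 in shTINCR cells and -0.75 in shSCR cells of the authors' deposited table. The secreted melanoma protein MIA was counted among those 9 genes of the PMEL list. It had a log2 TE of 4.42 in shTINCR cells and 4.07 in shSCR cells in the authors' deposited table. In each condition 1 of the 4616 genes stood above it. Its log2 change of 0.36 did not pass in the final comparison of the authors' deposited table (adjusted p = 0.13). It did pass in their second version (p adjusted here, 0.000933). These levels carry no error, and the difference between the lists was not tested.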
